A study of Mus musculus with 20 samples.

Results

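The 39 Hox genes of the mouse, which encode homeodomain transcription factors, were followed across 20 poly(A), single-end RNA-seq libraries of 2 tissues, pituitary and iWAT (inguinal white adipose tissue, a fat pad under the skin of the groin). They were taken by symbol, as every Hoxa, Hoxb, Hoxc or Hoxd gene with a paralogue number, out of 24062 genes in the files. The HoxA cluster on chromosome 6 holds 11 of them, HoxB on chromosome 11 holds 10, HoxC on chromosome 15 holds 9 and HoxD on chromosome 2 holds 9. In mm10 the clusters run over chr6:52155367-52260880, chr11:96194361-96368253, chr15:102921131-103036852 and chr2:74668310-74765142. All mice were male C57BL/6N on chow. In each tissue 5 libraries came from mice labelled Klf14 knockout (KO), a germline deletion per the series title, and 5 from mice labelled wild type (WT). The labels give no promoter, allele or line beyond this. A library is named here by its genotype label and the number in its title, which occurs once in each tissue. The age is 21 weeks for libraries KO 31, 32, 35 and 66 and WT 33 and 34, 19 weeks for KO 50 and WT 48 and 49, and 18 weeks for WT 56.

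Hox genes tell cells where they lie along the head-to-tail axis. Within a cluster the low-numbered genes are switched on early and reach far forward, into the hindbrain, while the high-numbered genes are used in the tail, the genital region and the ends of the limbs. Adult fibroblasts and fat depots keep part of this code, whereas the pituitary forms in the head, from oral ectoderm and the floor of the forebrain, ahead of the region where Hox genes act.

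Total counts lay between 14.8 and 18.7 M in the iWAT libraries and between 13.6 and 17.6 M in the pituitary libraries. The tissue labels matched their markers. The 8 adipocyte markers summed to between 8020 and 27198 CPM (counts scaled to a library of 1 M, M for mega) in iWAT and to between 29.2 and 41.4 CPM in pituitary, where Lep was at 0 in every library and Adipoq in all but KO 66. The 8 pituitary endocrine markers (hormone genes and the transcription factor gene Pou1f1) summed to between 0.739 and 2.11 CPM in 9 iWAT libraries. They summed to 125 CPM in iWAT KO 32 and to at least 98128 CPM in every pituitary library. The Klf14 counts went against the genotype label: pituitary libraries labelled KO held 417 to 679 Klf14 counts and those labelled WT held 196 to 304, and in iWAT Klf14 averaged 1.59 ± 0.81 CPM in KO and 0.94 ± 1.28 CPM in WT libraries (SD, n = 5 each). Every genotype direction below therefore rests on the labels alone. No label says in words that a number stands for 1 animal; a p-value then speaks only of the spread among them, which may be technical.

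In iWAT the Hox genes were present as a block bounded at both ends. Levels are given as RPKM, counts per kilobase of exon per M. Of the 39 genes, 28 had enough counts to be tested, among them all 27 of paralogue groups 2 to 10, and 23 genes averaged over 1 RPKM. The other 11 genes, which include all 9 of groups 11 to 13, together held 85 of the 33426 Hox counts in iWAT (0.254%). The edge was steep in HoxC and HoxA. Within HoxC, Hoxc10 averaged 5.60 ± 1.74 RPKM and its neighbour Hoxc11 averaged 0.179 ± 0.110 RPKM (SD, n = 10). Within HoxA, Hoxa10 averaged 3.05 ± 1.21 RPKM and Hoxa11 averaged 0.0196 ± 0.0237 RPKM (SD, n = 10). In HoxD the fall began earlier, with means of 7.0 RPKM for Hoxd8, 2.43 for Hoxd9, 0.556 for Hoxd10 and 0.0182 for Hoxd11. In HoxB, Hoxb7 averaged 2.83 RPKM, while Hoxb8 and Hoxb9 averaged 0.636 and 0.730 RPKM.

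**Figure D1:**
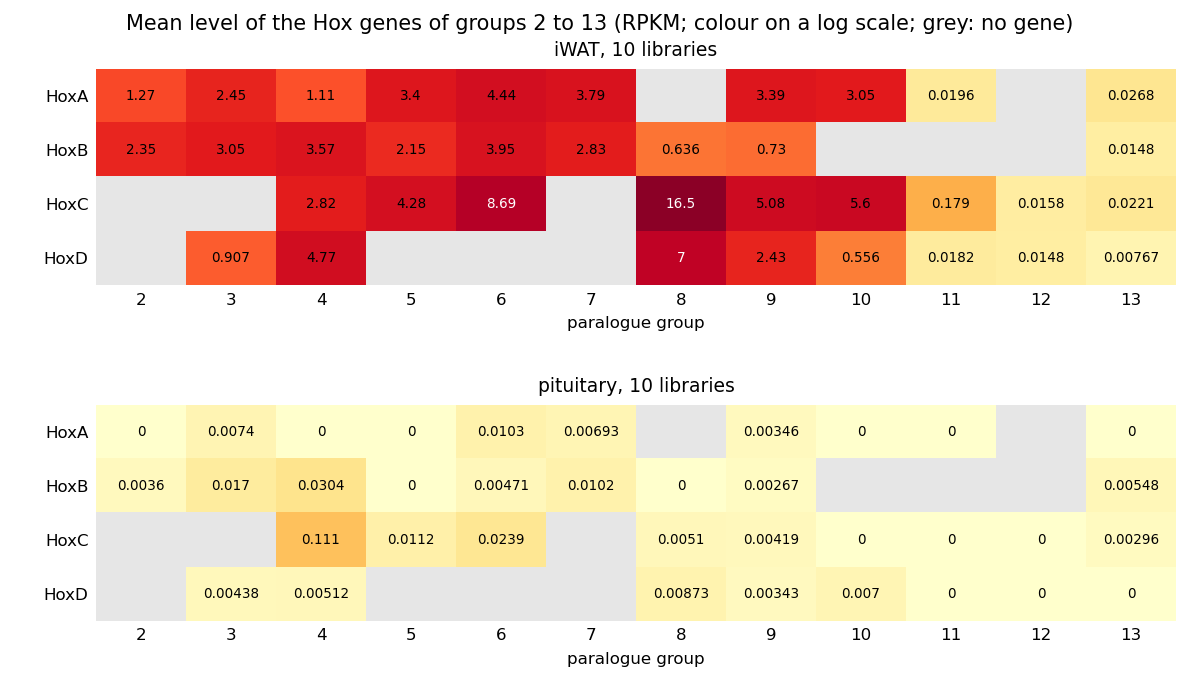
Mean RPKM of the 36 Hox genes of groups 2 to 13 over 10 iWAT libraries (top) and 10 pituitary libraries (bottom), with clusters as rows and paralogue groups as columns; colour follows a log scale, and grey cells hold no gene. In iWAT the levels run from 0.556 to 16.5 RPKM in groups 2 to 10 and stay at or under 0.179 RPKM in groups 11 to 13, while Hoxc4, at 0.111 RPKM, is the highest cell of the pituitary grid.

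The highest Hox gene in iWAT was Hoxc8, a thoracic-level gene known in mouse as a brake on the brown fat programme (chromosome 15, 102990539 to 102994254, mm10, plus strand). Its level was 15.3, 18.5, 10.8, 21.3 and 17.3 RPKM in KO 31, 32, 35, 50 and 66, against 26.4, 13.5, 9.34, 19.2 and 13.2 RPKM in WT 33, 34, 48, 49 and 56. The highest and the lowest library were both labelled WT, so the groups overlapped fully. Hoxc6, which shares the thoracic domain of Hoxc8, stood at 8.88, 12.2, 5.81, 8.09 and 10.1 RPKM in the same order of KO libraries, against 13, 7.08, 4.95, 9.80 and 7.0 RPKM in WT libraries. Hoxd8, the highest gene outside HoxC, stood at 5.38, 7.28, 6.15, 7.91 and 8.91 RPKM in KO libraries, against 7.97, 6.82, 4.94, 9.15 and 5.52 RPKM in WT libraries. For both genes the WT values enclosed the KO values.

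The next 5 genes were close together. Over the 10 iWAT libraries, Hoxc10, a mark of subcutaneous fat that represses browning in mice, had a lowest, median and highest level of 3.26, 5.28 and 9.17 RPKM. Hoxc9 had 2.56, 5.46 and 7.09 RPKM, and Hoxd4 had 2.97, 4.68 and 6.19 RPKM. Hoxa6 had 3.59, 4.17 and 6.14 RPKM, and Hoxc5 had 2.42, 4.61 and 6.51 RPKM. Of the 8 highest genes, 5 belong to HoxC, and the 8 together made 55.4% of the summed Hox RPKM.

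The order of neighbouring genes was mostly within the spread. Hoxc8 exceeded Hoxc6 by 7.80 RPKM, more than the larger SD of the pair, 5.16 RPKM. Below it, the only steps larger than the larger SD among the tested genes were from Hoxb5 (2.15 RPKM) to Hoxa2 (1.27 RPKM) and from Hoxd10 (0.556 RPKM) to the untested Hoxc11 (0.179 RPKM). Even so, these were low genes for this tissue: the median level of the 16105 genes tested in iWAT was 9.47 RPKM, and Hoxc8 was the only Hox gene above it.

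Promoters of a high and a low gene can be set side by side. RefSeq entries on GRCm38.p6 matched 22 of the 39 genes, with 24 promoters, each 250 bases before the start and 50 after it. Hoxd8 and Hoxd13 are shown because they lie in one cluster and were its highest and lowest genes in iWAT, at 7.0 RPKM and 0.00767 RPKM; Hoxd13 patterns digits and the genital tubercle. The Hoxd8 promoter is chr2:74704365-74704664 and the Hoxd13 promoter is chr2:74667975-74668274, both on the plus strand, with each CG in capitals.
Hoxd8: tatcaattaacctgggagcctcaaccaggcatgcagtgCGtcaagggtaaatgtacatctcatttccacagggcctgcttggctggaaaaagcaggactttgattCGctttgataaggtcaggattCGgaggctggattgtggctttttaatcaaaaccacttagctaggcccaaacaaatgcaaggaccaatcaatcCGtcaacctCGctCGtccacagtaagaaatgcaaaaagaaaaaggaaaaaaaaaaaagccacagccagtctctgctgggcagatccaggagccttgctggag
Hoxd13: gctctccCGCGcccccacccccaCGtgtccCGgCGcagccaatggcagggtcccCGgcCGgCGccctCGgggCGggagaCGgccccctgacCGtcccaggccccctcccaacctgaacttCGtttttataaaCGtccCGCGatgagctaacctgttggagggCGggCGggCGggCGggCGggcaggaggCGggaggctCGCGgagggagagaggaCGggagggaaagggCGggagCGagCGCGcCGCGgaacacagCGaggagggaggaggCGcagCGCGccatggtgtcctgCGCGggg
The Hoxd8 window held 6 CG, and the Hoxd13 window held 37. Over all 24 Hox promoters the median was 14.5 CG (range 4 to 45), against 7 over all 32851 mouse promoters of the same length. The 8 promoters of untested Hox genes had a median of 20 CG (range 4 to 45) and the 16 promoters of tested ones a median of 13.5 CG (range 4 to 29), so the ranges overlapped. The letters TGATNNAT, which a HOX and PBX pair is known to bind, were searched on both strands and occurred in 4 of 24 Hox promoters (16.7%) and in 8.85% of all promoters. The CCAAT box occurred on either strand in 15 Hox promoters (62.5%), Hoxd8 and Hoxd13 included, and in 37.4% of all promoters. The TATAAA box occurred on either strand in 16.7% of Hox promoters, Hoxd13 included, and in 13.6% of all promoters. None of the 3 motifs contains another, and each match is a description only.

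By cluster, HoxC gave the largest part of the Hox signal in every iWAT library, between 35.4% and 49.0% of the summed RPKM. HoxA gave 20.8% to 27.9%, HoxB 15.9% to 23.1% and HoxD 11.7% to 19.2%. By paralogue group, group 8 was highest with 24.1 ± 6.38 RPKM, followed by group 6 with 17.1 ± 3.45, group 4 with 12.3 ± 1.87 and group 9 with 11.6 ± 2.64 RPKM (SD, n = 10). Toward the anterior edge, group 2 had 3.62 ± 1.24 RPKM. The mean paralogue number, weighted by RPKM, was nearly the same in every iWAT library: 6.55 ± 0.07 in KO and 6.55 ± 0.09 in WT libraries (SD, n = 5 each), with all 10 values between 6.43 and 6.65.

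Both the total level and the composition varied between libraries. The summed Hox RPKM was 88.7, 113, 72.1, 131 and 109 in KO 31, 32, 35, 50 and 66, against 131, 87.6, 71.4, 118 and 95.1 in WT 33, 34, 48, 49 and 56. Both genotypes held a library near each end of the range. Across the 10 libraries, the coefficient of variation of the tested Hox genes ran from 11.5% (Hoxb4) to 50.2% (Hoxd10), with a median of 30.2%, against 20.4% for all genes tested. For each of the 28 genes it exceeded counting error, and for 18 it was more than double. When each gene was taken as a share of its library's Hox sum, the median coefficient of variation was 19.2%, lower than that of RPKM in 23 of 28 genes. Hoxd9, Hoxd10, Hoxb4, Hoxa4 and Hoxb7, the other 5, varied more as a share than as a level.

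Markers of several cell types also varied between the iWAT libraries, and no correlation with the Hox sum was computed. The 8 adipocyte markers summed to 9178, 17623, 12797, 27198 and 14772 CPM in KO 31, 32, 35, 50 and 66, against 20315, 15530, 8020, 17203 and 12515 CPM in WT 33, 34, 48, 49 and 56. KO 50, WT 33, KO 32 and WT 49 were the highest 4 libraries by adipocyte markers and by the Hox sum. The 8 lymph node markers, B and T cell genes, summed to 1056, 516, 806, 16.5 and 735 CPM in the KO libraries, against 602, 619, 982, 238 and 813 CPM in the WT libraries, in the same order. The 10 preadipocyte and fibroblast markers summed to 5557, 7373, 3518, 5482 and 3448 CPM in the KO libraries, against 9308, 3554, 2918, 10404 and 2980 CPM in the WT libraries. WT 49, WT 33 and KO 32, the highest 3 of these, were among the highest 4 by the Hox sum. The 7 blood markers summed to 7772 CPM in KO 50 and 4007 CPM in WT 49, against 929 to 2284 CPM in the other 8 libraries. No marker of these 4 lists was at 0 in any iWAT library. Other lists ordered the libraries in other ways. The highest 4 by 8 endothelial markers were KO 50, WT 49, WT 56 and KO 66. The 8 skeletal muscle markers were highest in KO 31 (515 CPM) and lowest in KO 50 (18.1 CPM). The highest 3 by 8 Schwann cell markers were WT 49, WT 33 and KO 32. The part of any of these lists in the Hox levels was not tested. In tissue RNA, fewer cells of a type and less RNA per cell cannot be told apart.

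**Figure D2:**
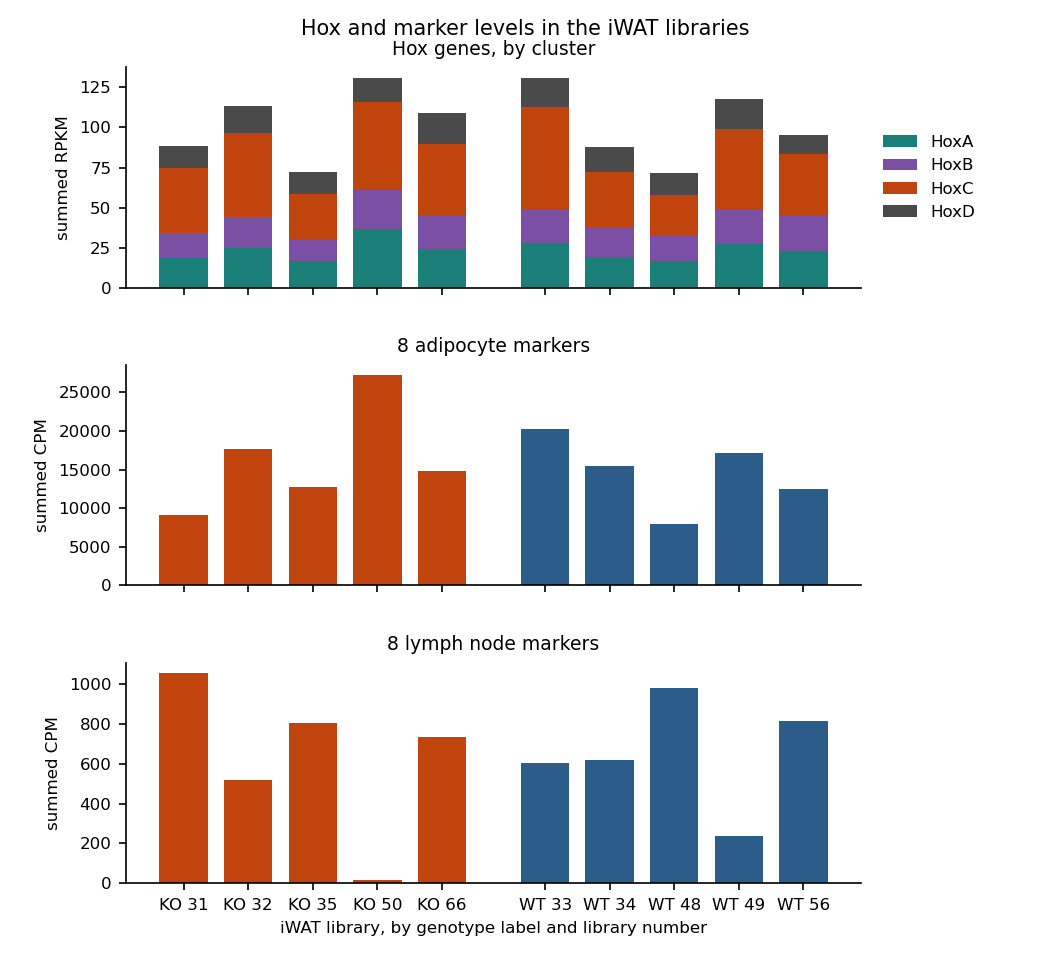
Summed RPKM of the Hox genes by cluster (top), and summed CPM of 8 adipocyte markers (middle) and 8 lymph node markers (bottom), one bar per iWAT library, with the 5 labelled KO left of the 5 labelled WT. KO 50 and WT 33 reach 131 RPKM and have the 2 tallest adipocyte bars, and KO 50 has the shortest lymph node bar, 16.5 CPM.

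KO 50 stood apart in composition as well as in total. It was the highest library for 14 of the 28 tested genes, and WT 33 for 7; KO 35 was the lowest for 10 and WT 48 for 8. In KO 50 the HoxA share was 27.9%, against 20.8% to 24.4% in the other 9 libraries, and the HoxD share was 11.7%, the lowest. Hoxa7, Hoxa9 and Hoxa10, neighbours in the 5′ part of HoxA, summed to 18.1 RPKM in KO 50, with 13 RPKM in WT 49 as the next highest. Hoxd9 and Hoxd10, their counterparts in HoxD, summed to 1.93 RPKM in KO 50, the lowest of the 10. These genes were grouped after their values were seen.

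**Figure D3:**
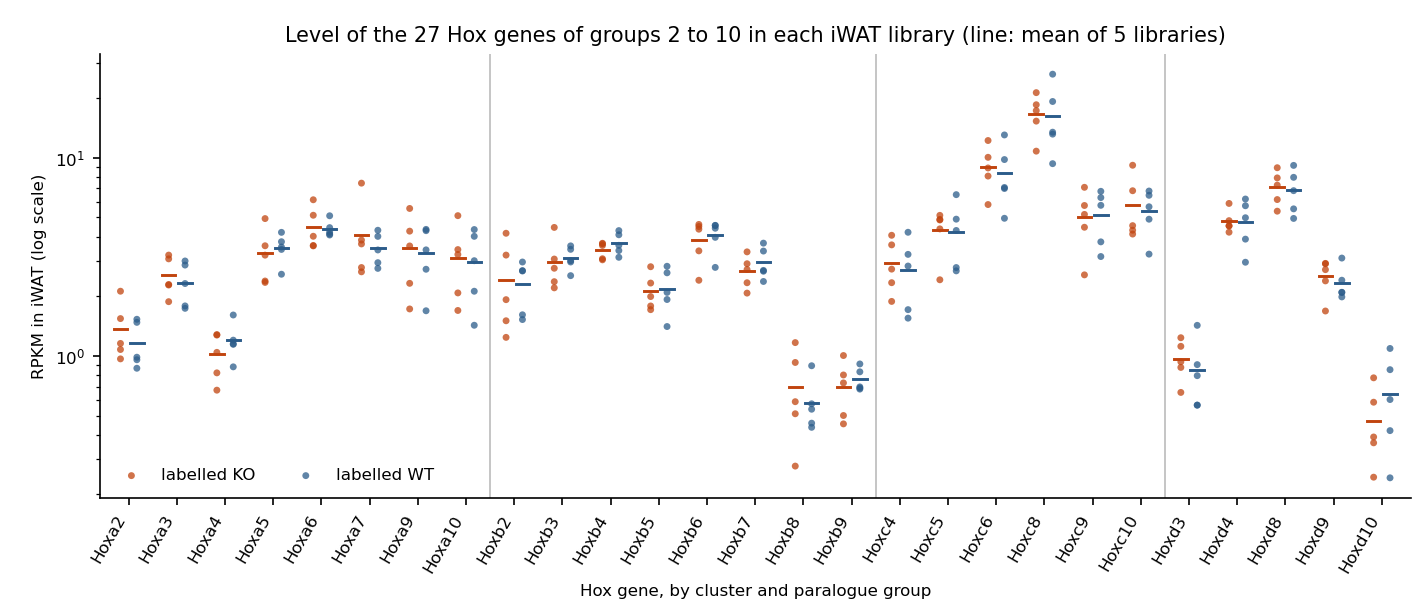
RPKM (log scale) of the 27 Hox genes of groups 2 to 10 in each iWAT library, with labelled KO left of labelled WT for each gene; points are libraries and lines are means of 5. The KO and WT points overlap for every gene, and the single high KO point of Hoxa7 is KO 50 at 7.45 RPKM.

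In the pituitary the Hox genes were nearly silent. The 39 genes together had 9, 12, 11, 18 and 9 counts in KO 31, 32, 35, 50 and 66, against 11, 5, 10, 6 and 10 counts in WT 33, 34, 48, 49 and 56, in libraries of 13.6 M counts or more. The sum over all 10 libraries was 101 counts, and 14 of the 39 genes had none. A count of 0 over the 10 libraries allows a level of up to 0.0185 CPM (3 counts; this and the intervals below cover counting error only). Most of the signal came from anterior genes: Hoxc4, Hoxb4 and Hoxb3 gave 59 of the 101 counts. No gene of groups 11 or 12 had a count.

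Hoxc4, the most anterior gene of HoxC, was the only Hox gene with a count in all 10 pituitary libraries: 5, 4, 3, 4 and 2 counts in KO 31, 32, 35, 50 and 66, against 4, 2, 4, 1 and 7 counts in WT 33, 34, 48, 49 and 56. Hoxb4, known for expanding blood stem cells when forced on in mouse, had 2, 1, 4, 1 and 0 counts in KO libraries, against 3, 0, 2, 0 and 0 counts in WT libraries, in the same order. Hoxc6, the third by RPKM, had 1, 0, 1, 1 and 1 counts in KO libraries, against 0, 0, 0, 1 and 1 counts in WT libraries. At such counts the ranking below Hoxc4, with 0.111 RPKM, is loose: Hoxb4 averaged 0.0304 and Hoxc6 0.0239 RPKM. KO 50 held the most Hox counts in the pituitary, 18 spread over 14 genes, most with 1 count. This library stood apart for 7 macrophage markers, which summed to 169 CPM, against 70.4 to 94.4 CPM in the other 9 pituitary libraries. Its 7 blood markers were also the highest, at 2437 CPM against 1107 to 1993 CPM, with no marker of either list at 0, and their part in the Hox counts was not tested. Its adipocyte markers summed to 41.4 CPM, close to 40.7 CPM in WT 48, and Adipoq, Plin1, Lep and Cidec were at 0.

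The contrast of iWAT with pituitary asks how far apart 2 adult tissues from different body levels lie in this code. Every Hox gene that could be tested was higher in iWAT: 28 of 28 passed at an adjusted p of 0.05 (edgeR quasi-likelihood test, Benjamini-Hochberg over 17731 genes), where 43.3% of all genes tested were called higher and 41.2% lower in iWAT. That count is no support, since these 28 genes passed the filter on low counts through iWAT alone and so had to differ. Without the filter, 32 of all 39 genes were called higher and 0 lower, against 36.2% of 23824 genes called higher. Hoxa13, Hoxb1, Hoxb13, Hoxc12, Hoxc13, Hoxd12 and Hoxd13 were not called, and each had 9 counts or fewer in iWAT. A pooled ratio or bound of at least 32-fold was reached by 27 of the 28 and by 4.07% of the 17731 genes, and since the filter kept these Hox genes through iWAT alone, nothing is read from that share either.

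**Figure D4:**
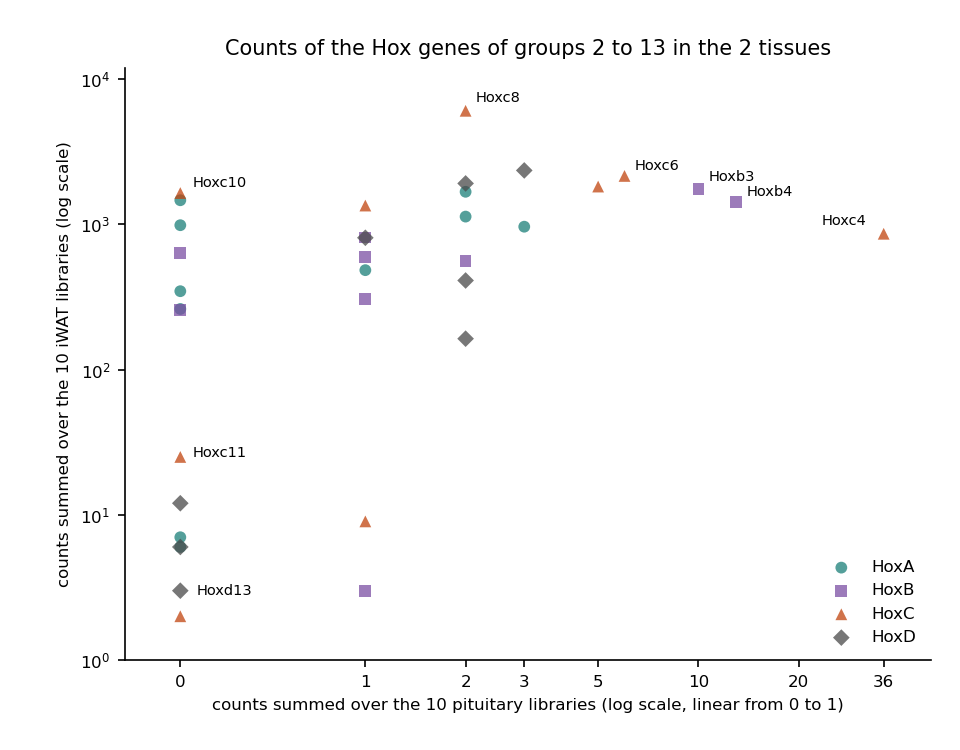
Counts of each Hox gene of groups 2 to 13 summed over 10 iWAT libraries (vertical, log scale) against counts summed over 10 pituitary libraries (horizontal, log scale, linear from 0 to 1), with a symbol per cluster. Hoxc4 lies farthest right with 36 pituitary counts, Hoxc8 highest with 6041 iWAT counts, and 14 genes stand at 0 pituitary counts.

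The largest ratio belonged to Hoxc8, with 6041 counts in iWAT and 2 in pituitary, 3126-fold higher in iWAT per M counts (95% exact interval 865 to 25815; edgeR adjusted p = 9.19e-16). Hoxc9 had 1345 counts in iWAT and 1 in pituitary (1392-fold, interval 249 to 55013), and Hoxd4, which marks the hindbrain and neck, had 1910 and 2 (988-fold, interval 273 to 8166). Hoxa9, known for its role in blood progenitors and leukaemia, had 1673 and 2 counts (866-fold, interval 239 to 7153), and Hoxb6 had 811 and 1 (839-fold, interval 150 to 33187). Intervals this wide do not order these 5 genes. Of the tested genes, 7 had no pituitary count, and for these only a bound can be given: Hoxc10 was at least 566-fold, Hoxa10 at least 505-fold and Hoxa5 at least 340-fold higher in iWAT, taking 3 counts over the 10 pituitary libraries as the floor.

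Among the tested genes, the smallest ratio was that of Hoxc4, with 860 counts in iWAT and 36 in pituitary. Hoxc4 was 24.7-fold higher in iWAT (95% exact interval 17.7 to 35.5, edgeR log2 difference 4.61 ± 0.27 SE, edgeR adjusted p = 5.39e-12). Its interval lay below those of Hoxb4 (114-fold, interval 66.2 to 214) and Hoxb3 (181-fold, interval 98.2 to 378). Hoxd10 came next from the bottom, with 163 counts in iWAT and 2 in pituitary (84.3-fold, interval 23.0 to 702), and Hoxb8, with 257 and 0, was at least 88.6-fold higher in iWAT. Both are low in iWAT itself, so their bounds are set by few counts. Weighted by RPKM, the mean paralogue number was 6.55 ± 0.08 in iWAT and 4.84 ± 0.72 in pituitary (SD, n = 10 each), the pituitary value resting on 5 to 18 counts per library.

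The study's own question was whether the deletion of Klf14, a Krüppel-like zinc finger factor, altered expression. For the Hox genes of iWAT no difference between labelled KO and labelled WT passed: edgeR called 0 of 28 (0% of the 16105 genes tested were called), 0 had an unadjusted p under 0.05, and DESeq2 and limma voom also called 0. In groups 2 to 10 the log2 differences lay between -0.45 (Hoxd10) and 0.22 (Hoxb8). Over the 28 genes, 17 were above and 11 below 0, with a median of 0.02, against a median of -0.0002 over all genes. In 25 of the 28 genes the difference was under 0.25 in size. No Hox gene had KO and WT libraries that did not overlap, which held for 0.0807% of all genes.

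**Figure D5:**
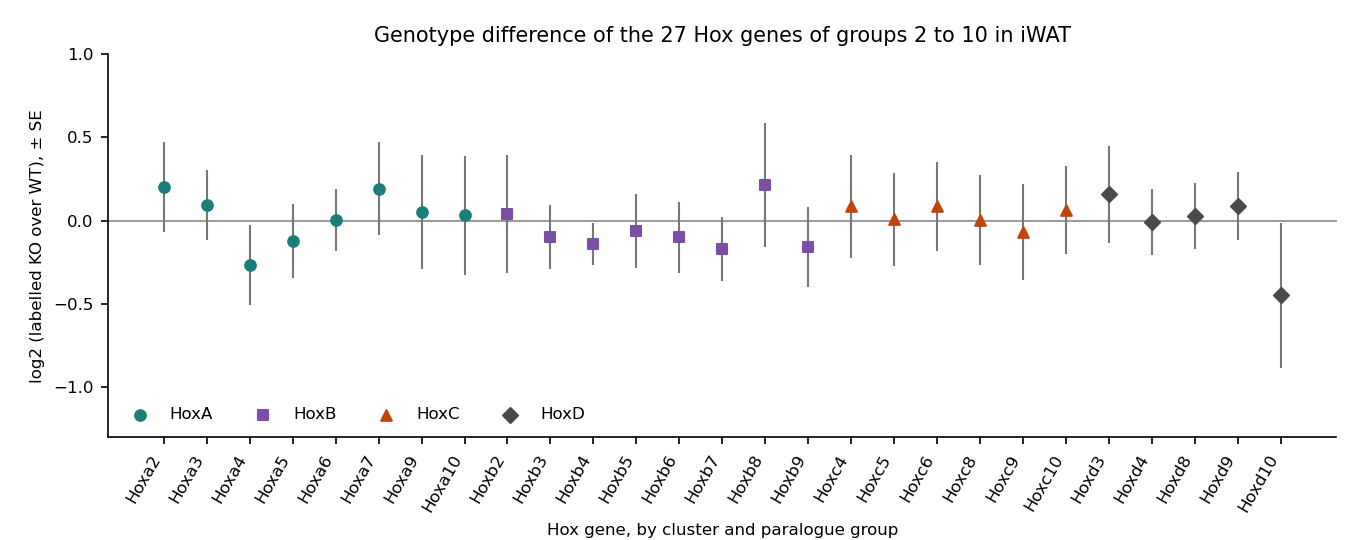
Log2 difference, labelled KO over labelled WT, of the 27 Hox genes of groups 2 to 10 in iWAT, with bars of 1 SE from edgeR and symbols by cluster. Values run from -0.45 (Hoxd10) to 0.22 (Hoxb8), and none passed the test.

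Of the genes with the smallest p in iWAT, Hoxb4 and Hoxa4 are given as values. Hoxb4 averaged 3.43 ± 0.33 RPKM in KO and 3.71 ± 0.47 RPKM in WT libraries (SD, n = 5 each), a log2 difference of -0.14 ± 0.13 SE (edgeR adjusted p = 1). Hoxa4 averaged 1.02 ± 0.27 RPKM in KO and 1.20 ± 0.26 RPKM in WT libraries, a log2 difference of -0.26 ± 0.24 SE (edgeR adjusted p = 1).

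The largest negative value was that of Hoxd10, a gene of the hindlimb and lumbar level, with 0.584, 0.390, 0.364, 0.244 and 0.775 RPKM in KO 31, 32, 35, 50 and 66, against 0.419, 0.242, 0.852, 1.09 and 0.602 RPKM in WT 33, 34, 48, 49 and 56. WT libraries held both the lowest and the highest value. Its log2 difference was -0.45 ± 0.43 SE, and it came out at 0.67 in mice of 21 weeks only. Hoxc8, the highest gene, averaged 16.7 ± 3.93 RPKM in KO and 16.3 ± 6.66 RPKM in WT libraries, a log2 difference of 0.0048 ± 0.27 SE.

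The balance of directions depended on single libraries. Without KO 50, 21 of the 28 differences were below 0, with a median of -0.13; without WT 48, 21 were below 0, with a median of -0.09; without WT 33, 20 were above 0, with a median of 0.12, and without KO 35, 21 were above 0, with a median of 0.12. In mice of 21 weeks only, 22 were below 0, with a median of -0.20. None of these fits called a Hox gene. By cluster, HoxA had 7 of 9 and HoxC 5 of 6 values above 0, HoxB had 6 of 8 below 0, and HoxD was split 3 to 2. A missed threshold does not show that levels are equal. In simulated iWAT data over 15951 genes, edgeR recovered 51.5% of genes changed 2-fold and 7.14% of those changed 1.5-fold. The changed genes were drawn at random from all genes in the fit, so recovery was not measured at the level or spread of the Hox genes.

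In the pituitary no Hox gene passed the filter on low counts, so none was tested beside the 90 of 16389 genes called there (0.549%). No Hox gene had KO and WT pituitary libraries that did not overlap. With most of these libraries at 0 counts for most Hox genes, overlap was nearly fixed beforehand, so nothing is read from it. Among the genes tested there, which include no Hox gene, the groups did not overlap for 2.85%. Libraries labelled KO held 59 Hox counts and those labelled WT held 42. Without KO 50, the remaining 4 KO libraries lay between 9 and 12 counts, within the WT range of 5 to 11 but for KO 32. Without any filter, the 25 Hox genes with a count entered the fit, edgeR called 0 and 0 had an unadjusted p under 0.05. Exact two-sided permutation tests were made for single genes below the filter with at least 10 counts in a tissue. Hoxc4 averaged 0.228 ± 0.067 CPM in KO and 0.234 ± 0.148 CPM in WT libraries (exact permutation p = 0.921; SD over 5 libraries each). Hoxb4 averaged 0.10 ± 0.0952 CPM in KO and 0.0624 ± 0.0889 CPM in WT libraries (exact permutation p = 0.556), and Hoxb3 averaged 0.0781 ± 0.0829 CPM in KO and 0.0531 ± 0.0300 CPM in WT libraries (exact permutation p = 0.468). With Hoxc11 and Hoxd11 in iWAT, 5 such tests were made, and the smallest p was 0.302 (exact permutation, Hoxc11, with 10 counts in KO and 15 in WT libraries); the smallest p the test can give is 0.00794.

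Whether the genotype difference itself differed between the tissues was tested in 1 fit over all 20 libraries. edgeR called 0 of 28 Hox genes (0% of the 17731 genes tested), 1 had an unadjusted p under 0.05, and DESeq2 and limma voom called 0 Hox genes. The gene was Hoxd8, with a log2 difference of 2.58 ± 0.99 SE between the tissues' KO effects (edgeR adjusted p = 1). It rests on 3 pituitary counts, 1 each in WT 33, 49 and 56, and none in KO. For the 7 tested genes without a pituitary count the fit could not estimate this difference, with an SE from 45.2 (Hoxb5) to 547 (Hoxa2). Another 16 tested genes, Hoxd8 included, had 1 to 3 pituitary counts. The 0 calls therefore do not show that the KO effects were equal in the tissues.

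Proteins of the TALE class (PBX, MEIS, PKNOX and TGIF) bind DNA beside HOX proteins. All 11 of these cofactor genes were tested in both tissues; 3 were higher and 7 lower in iWAT, with a median log2 difference of -0.68, against 0.04 over all genes. Over all genes 43.3% were called higher and 41.2% lower in this contrast, 84.5% in all, so the share called in this list, and in the lists below, is to be read against a background in which most genes differ. Pbx2 had 15.6 ± 1.19 RPKM in iWAT and 16.2 ± 1.59 RPKM in pituitary and did not pass (edgeR adjusted p = 0.384). Pknox1 had 8.15 ± 1.0 RPKM in iWAT and 3.87 ± 0.42 RPKM in pituitary, higher in iWAT (edgeR adjusted p = 1.31e-10; SD over 10 libraries throughout).

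The regulators that hold Hox clusters silent or open were expressed in both tissues. Of 21 Polycomb and Trithorax genes, 13 were higher and 5 lower in iWAT, with a median log2 difference of 0.34; the share called was near the 84.5% of all genes. Cbx7, a Polycomb reader, had 39.6 ± 10.1 RPKM in iWAT and 29.6 ± 2.72 RPKM in pituitary. Ash1l had 33.0 and 31.4 RPKM and did not pass; Ezh1, a histone H3 methyltransferase, had 31.6 and 16.6 RPKM, and the Trithorax gene Kmt2a had 24.1 and 31.8 RPKM, iWAT before pituitary. Of 23 retinoid, Cdx and other upstream regulators, 18 were tested, 12 higher and 4 lower in iWAT, with a median of 0.80, beside 43.3% and 41.2% of all genes. Aldh1a1, which makes retinoic acid, had 39.9 ± 18.6 RPKM in iWAT and 9.01 ± 1.38 RPKM in pituitary, while Aldh1a2, another such enzyme, had 0.751 ± 0.201 RPKM in iWAT and 19.8 ± 3.33 RPKM in pituitary. The retinoid X receptor genes stood at 36 and 14.2 RPKM (Rxra) and at 5.64 and 24.8 RPKM (Rxrg) in iWAT and pituitary, and Ctcf, which insulates chromatin domains, had 30.4 and 18.1 RPKM.

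Other genes of position included some that were high in the pituitary. Of 25 homeobox and T-box genes, 17 were tested, 10 higher and 6 lower in iWAT, beside 43.3% and 41.2% of all genes, with a median log2 difference of 0.96. Lhx3, needed to form the pituitary, had 0.0322 ± 0.0402 RPKM in iWAT and 39.1 ± 5.03 RPKM in pituitary. Meox2, a mesoderm gene, had 13.2 ± 3.23 RPKM in iWAT and 0.120 ± 0.038 RPKM in pituitary. Tbx3 had 5.94 and 2.34 RPKM, and Tbx15, a gene of trunk skin and fat, had 5.79 and 0.673 RPKM, iWAT before pituitary. All of these passed (edgeR, largest adjusted p 8.97e-06 for Tbx3).

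Genes just outside the clusters were expressed in both tissues. Of 18 flanking genes, 13 were tested, 5 higher and 3 lower in iWAT, beside 43.3% and 41.2% of all genes, with a median log2 difference of -0.0080. Hibadh, beside HoxA, had 89.7 ± 26.1 RPKM in iWAT and 32.9 ± 2.04 RPKM in pituitary, and Hnrnpa1, beside HoxC, had 76.2 ± 11 and 78.2 ± 4.54 RPKM and did not pass (edgeR adjusted p = 0.626). Atp5g2 had 64.5 and 64.8 RPKM, and Cbx5, the gene of a heterochromatin protein, was lower in iWAT with 22.6 and 67.0 RPKM, though it and Hnrnpa1 share exon bases with other genes. In none of these lists was a gene called between labelled KO and WT in either tissue, or in the interaction; edgeR was used throughout, and 0.549% of all genes were called in the pituitary.

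A further list held 23 genes, non-coding genes of the clusters, Evx genes and Mir7676-1. Of these 13 were in the files and 2 were tested, both higher in iWAT (beside 43.3% of all genes). Hoxd3os1, antisense to Hoxd3, had 313 counts in iWAT and 0 in pituitary, at 2.53 ± 0.56 RPKM in iWAT. Mir7676-1 had 71.5 ± 18.6 RPKM in iWAT and 0.722 ± 0.731 RPKM in pituitary, but its exon bases are shared with Csf2rb, Csf2rb2 and Mir7676-2, so its counts cannot be assigned. The microRNA genes Mir10 and Mir196 lie within the Hox clusters, and their products are known to target Hox transcripts. Their mature 5p sequences (RefSeq, GRCm38.p6) are shown because they fall into 2 groups by seed, with the seed, bases 2 to 8, in capitals.
Mir10a: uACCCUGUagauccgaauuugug
Mir10b: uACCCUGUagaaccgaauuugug
Mir196a-1: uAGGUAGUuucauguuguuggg
Mir196b: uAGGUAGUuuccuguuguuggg
Mir196a-2, in HoxC, gives the same mature sequence as Mir196a-1, in HoxB. Mir10a, beside Hoxb4, had 67 counts in iWAT, present in all 10 libraries, and 1 in pituitary, and Mir10b, inside the span of Hoxd4, had 15 and 0. Mir196a-2 had 30 counts in iWAT, Mir196b, in HoxA, had 21 and Mir196a-1 had 15, all with 0 in pituitary. These reads come from poly(A) RNA over the hairpins and do not measure the mature microRNAs.

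Counts were made without regard to strand, which touches some members. In the files' annotation 2 Hox genes share exon bases with another gene, Hoxa3 for 1.10% and Hoxa11 for 24.8% of its length. In GENCODE vM21, 8 Hox genes overlap an antisense gene, among them Hoxb2 and Hoxb3 (Hoxb3os), Hoxb5 (Hoxb5os) and Hoxd3 (Hoxd3os1), and reads from the partners cannot be told apart. A gene on the same strand overlaps 7 Hox genes there, among them Hoxc10 (Hoxc5), Hoxd4 (Gm28230) and Hoxd3 (Hoxd4 and Gm28230), of which Hoxc10 and Hoxd4 are among the 8 highest in iWAT. Hoxc8, Hoxc6, Hoxd8 and Hoxc4 are in neither set.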

How the data were processed

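Each library has a deposited table of raw counts of reads per gene, which the authors did not normalize. STAR 2.4.0, featureCounts 1.4.4, mm10 and GRCm38 are the tools and builds listed by the submitters' processing notes. Exons of a UCSC mm10 gene annotation were counted on primary alignments, with a read over several genes given to each and no strand option, as the command in the file headers shows. The deposited tables also give the exon length of each gene, which is used here for RPKM.

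CPM and RPKM were computed here from the deposited counts with TMM-scaled library sizes, unless CPM is given for a permutation test (unscaled). Tests were edgeR 4.0.16 in R 4.3.3 (filterByExpr, robust quasi-likelihood, Benjamini-Hochberg, threshold 0.05): each tissue alone for KO against WT, and 4 group means over 20 libraries for the tissue contrast and the interaction. Pooled ratios use summed counts, with 95% exact Clopper-Pearson intervals. Single genes under the filter with at least 10 counts had exact permutation tests over 252 assignments. Every pair of libraries of a group differed by more than sampling noise (smallest reduced chi-square 4.70).

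Named genes were the 8 highest Hox genes in iWAT and 3 in pituitary, the 5 highest and 3 lowest ratios, those not called, the 3 smallest p per genotype contrast and the 1 of the interaction, and the 3 (iWAT) and 2 (pituitary) highest members per list; others were named after their values were seen, and some genes that the rule names are not reported here. The members and lists were chosen with earlier results of these data known. Alternatives were RLE scaling, library sizes without the 20 most abundant genes, no filter, DESeq2 1.42.0, voom with quality weights (limma 3.58.1), a filter of over 1 CPM in 5 libraries, age, marker scores, mice of 21 weeks only, 1 fit for all, a threshold of 0.1, 1 genotype only, the library number as a block, and leaving out each library. The fits were tested on simulated counts with 200 changed genes.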

Additional observations from a re-analysis of the deposited data

Results flagged for a closer look

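In 72 groups of 5 libraries (the 28 tested Hox genes, the 4 cluster sums and the overall sum in iWAT, and the 3 genes with at least 10 counts in pituitary), 3 held a library far from the other 4 by Dixon's criterion of 0.710 of the range. Chance flags about 1 in 20 groups. Hoxa7 was 7.45 RPKM in iWAT KO 50, with the next KO library at 3.84 RPKM. Hoxc5 was 2.42 RPKM in iWAT KO 35, with the next KO library at 4.38 RPKM. Hoxb3 was at 0 RPKM in pituitary WT 56, with the other 4 WT libraries at 0.0157 RPKM or more, which is 1 count each.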

How the results depend on the processing

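The count of Hox genes called higher in iWAT than in pituitary was 28 of 28 under the alternatives run, except for 27 of 27 in KO libraries only and in WT libraries only and 32 of 39 without a filter, with 28 in each fit that left out a library. The counts of 0 for KO against WT in iWAT and for the interaction were 0 under every alternative run, and 0 to 0 when leaving out each library. In the pituitary, Hox genes entered only the fit without a filter (25 genes) and the 1 fit over all libraries (28 genes), and 0 were called. The other pituitary fits, those leaving out a library included, tested no Hox gene, so their counts of 0 were fixed beforehand. Calls over all genes in the pituitary did move, from 68 higher and 22 lower to 186 and 102 with DESeq2, 31 and 13 with age, 3 and 2 in mice of 21 weeks and 1 and 0 in 1 fit over all libraries. Of the 28 Hox genes in iWAT, 17 differences were above 0 in the report's fit, 6 in mice of 21 weeks, 13 with limma voom, 13 with lymph node and muscle scores and 14 with age; none was called. Among the genes followed singly, Hoxb4 came out at 0.038 (log2) in mice of 21 weeks and at 0.043 with those scores as covariates, and Hoxd10 at 0.051 with limma voom, 0.67 in mice of 21 weeks and 0.010 with those scores; the cause was not tested. The summed iWAT level of all Hox genes lay between 96.1 and 100.9 RPKM under other scalings and without overlapping genes.

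Library numbers are shared by the tissues. Over 10 numbers the correlation of deviations was between -0.059 and 0.095, and 3 libraries correlated best with their own number. Deviations of different tissues of the same animal need not correlate, so these values cannot decide whether same-numbered libraries share an animal. With the library number as a block, 28 Hox genes were called higher in iWAT and 0 in the interaction, and the block changed no call of a Hox gene.

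With 5 to 18 Hox counts per pituitary library, counting error limits every pituitary value.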
